A study of Paxillus involutus with 12 samples.

Results

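In mycelium of the fungus Paxillus involutus kept without fresh carbon, 137 of 12214 array sequences (1.12%) rose in the middle of the time course and ended below their starting level. The members were chosen by measured values. M2, M6, M8 and M13 are the means of the 3 log2 expression values at days 2, 6, 8 and 13. A member had the larger of M6 and M8 at least 0.4 above M2, and M13 at least 0.5 below M2. Both conditions are on the log2 scale, where 1 is a doubling. The pattern of rise and loss is therefore the choice itself, and the values that made it are given as a description.

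Paxillus involutus is an ectomycorrhizal basidiomycete, which in the forest lives on sugars supplied by the roots of its host tree. When sugar runs out, filamentous fungi slow their growth, and autophagy, in which parts of the cytoplasm are enclosed in vesicles and broken down in the vacuole, returns amino acids and other nutrients for reuse. The sequences carry numbers only (paxillus_1 to higher numbers). The files pair none of them with a gene name, and none of their IDs was found among the 18033 genes of the reference table, so no role can be given to any member and no pathway list could be matched.

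All 12 samples were strain ATCC 200175, grown axenically on glass beads in Petri dishes. They grew in a minimal Melin Norkrans medium with ammonium (C/N ratio 3), after a pre-culture and 24 hours of nitrogen starvation. Each of the 4 harvest days (2, 6, 8 and 13) has 3 arrays, and each array holds RNA from 2 pooled cultures. Day 2 serves as the baseline, and no culture with added carbon was measured, so time without carbon and age of the culture cannot be told apart. The 3 arrays of a day also sit at consecutive array numbers on the single chip, so day and position cannot be told apart. For the samples titled day 6 and day 8 the descriptions give 2 position numbers that disagree. The titles were followed. The rule takes the larger of M6 and M8, so an exchange of these days leaves all 137 members in place. It turns the direction between days 6 and 8, and swaps the counts and peak days given for each of them.

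The medians of the 12 arrays ran from 11.35 to 11.38 (log2), after a normalization that makes them alike. Correlations between arrays of a day were 0.989 to 0.998, and the median SD between arrays was 0.129 and 0.139 at days 2 and 13 against 0.0790 and 0.0771 at days 6 and 8. The random-sequence control, a measure of background, lay between 4.49 and 4.70. Of the members, 136 of 137 were at least 2-fold above that control on all 12 arrays, and 136 of 137 were summarised from 10 probe pairs. The exception to both was paxillus_13634, which rests on 2 probe pairs. The median level of the members over all arrays was 11.36, against 11.37 for all sequences, and ranged from 5.51 to 13.82.

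The median rise over day 2 was 0.57 on the log2 scale (1.48-fold), with a range from 0.40 to 1.93 (3.81-fold). The median loss from day 2 to day 13 was 0.78 (1.71-fold), with a range from 0.50 to 1.96 (3.88-fold). The fall from the mid-course peak to day 13 is the sum of rise and loss. The members fell by a median of 2.71-fold, 131 of them at least 2-fold, 27 at least 4-fold and the deepest 8.41-fold. A rise of at least 2-fold was measured in 15 members and a loss of at least 2-fold in 42, and 7 members had both.

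Most sequences with the mid-course rise did not have the loss. Of all sequences, 3095 (25.3%) had a mean at day 6 or 8 at least 0.4 above day 2. Of these, 1584 were at least 0.5 above day 2 at day 13, 1374 lay within 0.5 of it, and the 137 members (4.43%) lay at least 0.5 below. Seen from the other side, 2444 sequences were at least 0.5 lower at day 13 than at day 2, and 5.61% of these had the rise. The mirror image, a mid-course fall of at least 0.4 followed by a mean at least 0.5 above day 2, was met by 120 sequences.

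**Figure D1:**
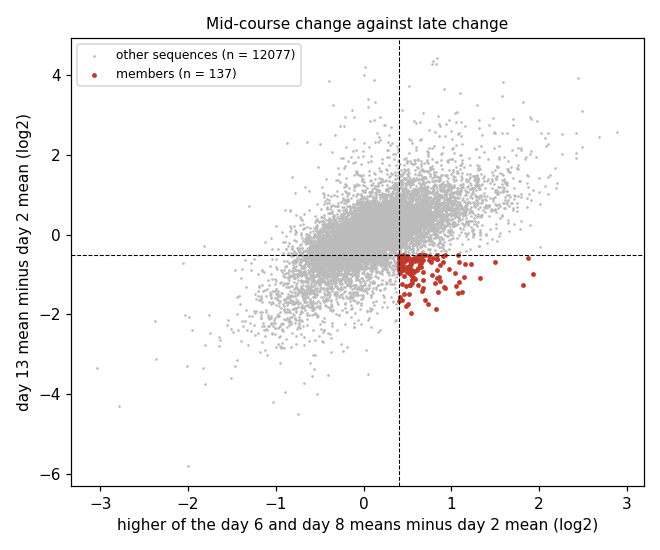
Each point is 1 of 12214 sequences. The horizontal axis gives the larger of the day 6 and day 8 means minus the day 2 mean, and the vertical axis the day 13 mean minus the day 2 mean, both on the log2 scale. Dashed lines mark the limits of 0.4 and -0.5, and the 137 members (red) lie in the lower right corner.

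Because the limits cut through a continuous cloud, the members nearest to them differ little from sequences outside. paxillus_6803 is a member with a rise of 0.40 and a loss of 0.61, from 11.54 ± 0.40 (SD, n = 3) at day 2 through 11.94 ± 0.08 and 11.56 ± 0.11 to 10.93 ± 0.34. paxillus_4109 is a member with a rise of 0.40 and a loss of 0.55. Just outside, paxillus_7036 had a rise of 0.40 and a loss of 0.50, both a fraction under the limits, and paxillus_6920 a rise of 0.40 with a loss of 0.65.

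For the comparisons that the rule used, the counts of calls follow from the choice, and nothing is read from them. A call is an adjusted p under 0.05 in a limma fit across all sequences. At day 6, 92 of 137 members were called higher than at day 2, where 23.0% of all sequences were. At day 8, 64 were called higher (30.9% of all sequences) and 4 lower (28.5% of all). At day 13, 135 were called lower than at day 2 (31.4% of all), the exceptions being paxillus_6855 and paxillus_10162. All 137 were called lower at day 13 than at day 6 (28.9% of all), and 133 lower than at day 8 (28.3% of all).

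A rise at day 6 or day 8 was called in 115 members (35.0% of all sequences). Of the 115, 41 were called at both days, 51 at day 6 only and 23 at day 8 only. The shares of all sequences in these classes are not given, so nothing is read from the split. In the other 22 members the rise did not pass the test at either day. These 22 had a median SD between the day 2 arrays of 0.397, against 0.203 for all members. Rise and loss were both called in 114 members, where 2.64% of all sequences had both. Counted by arrays alone, 109 members had all 3 arrays of day 6 or of day 8 above all 3 of day 2 and all 3 of day 13 below them, as had 3.66% of all sequences.

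The step from day 6 to day 8 is the part of the course whose direction the rule left free. It split the members into 3 groups. By day 8, 43 members had fallen from their day 6 level (31.4%, where 11.6% of all sequences fell), 15 were higher than at day 6 (10.9%, where 14.3% of all were), and 79 did not pass the test (limma, adjusted p under 0.05). The median difference was -0.34 on the log2 scale, against 0.00 for all sequences. Of the sequences with the same loss and no rise, 31.5% were called lower at day 8 than at day 6. In the mirror image the share was 36.7%, and in sequences with the same rise that ended near day 2 it was 4.95%. The excess of falls over all sequences is therefore not read as particular to the members. Because the rule takes the larger of the 2 means, it favours sequences whose days 6 and 8 differ, in either direction. The 58 calls depended on single arrays and on the estimate of spread. Leaving out day 6 array 1 gave 31 calls (24 falls and 7 rises), leaving out day 6 array 2 gave 30 (25 and 5), and leaving out day 8 array 3 gave 24 (20 and 4). The share of all sequences called without these arrays is not given, so nothing particular to the members is read from these counts.

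**Figure D2:**
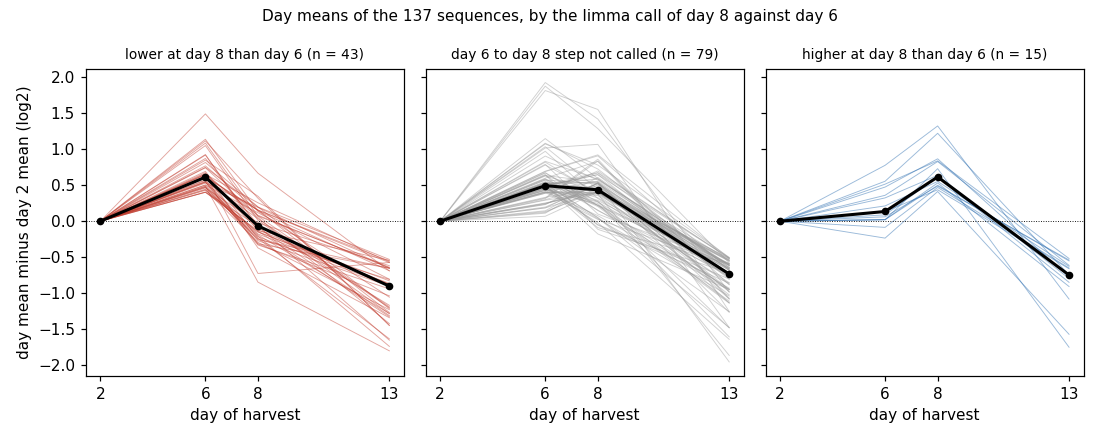
Day means minus the day 2 mean (log2) against day of harvest, one thin line per member, in 3 panels by the limma call of day 8 against day 6, with the median in black. Members called lower at day 8 (n = 43) peak at day 6, with a median of 0.61 there and -0.07 at day 8. Single members lie further from 0 at day 8, such as paxillus_9952 at -0.85. The median of those without a call (n = 79) is 0.49 at day 6 and 0.44 at day 8 over widely spread lines. Those called higher (n = 15) peak at day 8.

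The 43 members called lower at day 8 than at day 6 peaked at day 6 by that definition. Relative to day 2 their medians were 0.61, -0.07 and -0.90 on the 3 later days. In 24 of the 43 the day 8 mean was at or below the day 2 mean. The 79 members without a call had medians of 0.49, 0.44 and -0.73, and their differences between days 6 and 8 ran from -0.76 to 0.54. In 6 of them the day 8 mean was at or below the day 2 mean, so a missing call does not mark a level course. The 15 late risers had medians of 0.14, 0.62 and -0.75, and 2 of them had a day 6 mean at or below that of day 2. For these the whole loss fell between days 8 and 13.

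The deepest day 6 to day 8 falls belonged to paxillus_9044 and paxillus_9952. paxillus_9044 measured 12.86, 12.93 and 12.78 on the day 2 arrays, 13.34, 13.58 and 13.61 at day 6, 12.79, 11.97 and 11.64 at day 8, and 12.26, 12.39 and 12.20 at day 13. The day 6 arrays lay above all others, and the day 8 arrays spread widely and reached below those of day 13. It was 2.60-fold lower at day 8 than at day 6 (log2 difference -1.38 ± 0.21 SE, limma adjusted p = 0.00125). It is 1 of 4 members not called between days 8 and 13, with paxillus_2596, paxillus_6855 and paxillus_11307.

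paxillus_9952 measured 11.46, 11.29 and 11.55 at day 2, 11.81, 11.57 and 12.37 at day 6, 11.23, 10.42 and 10.11 at day 8, and 9.37, 9.88 and 9.65 at day 13. Each day's arrays were separate from the next, in the order day 6, day 2, day 8, day 13. The step from day 6 to day 8 was 2.52-fold (log2 difference -1.33 ± 0.26 SE, limma adjusted p = 0.00389). At day 8 it was already -0.85 ± 0.26 SE below day 2 (limma adjusted p = 0.0135), a call lost without day 8 array 3 (log2 difference -0.61, adjusted p = 0.0695). Its rise at day 6 did not pass the test.

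In 3 members the direction against day 2 turned over between days 6 and 8, with all 3 differences called, as in 0.115% of all sequences. These were paxillus_4643, paxillus_5597 and paxillus_9044. paxillus_5597 was the tightest, with 13.08, 13.02 and 13.00 at day 2, 13.61, 13.55 and 13.56 at day 6, 12.97, 12.63 and 12.51 at day 8 and 12.11, 12.18 and 11.98 at day 13. No array of one day overlapped those of another. It fell 1.83-fold from day 6 to day 8 (log2 difference -0.87 ± 0.11 SE, limma adjusted p = 0.000404), and lay 0.54 above day 2 at day 6 and -0.33 relative to it at day 8. That last difference (limma adjusted p = 0.0164) was not called without day 8 array 2 (adjusted p = 0.0619) or day 8 array 3 (adjusted p = 0.0832).

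Among the late risers, the largest steps were those of paxillus_651 and paxillus_13310. paxillus_13310 measured 12.38, 12.42 and 12.42 at day 2, 13.09, 12.79 and 13.01 at day 6, 13.39, 13.59 and 13.91 at day 8, and 11.48, 11.76 and 11.74 at day 13. Its days were all separate and climbed in 2 steps before the drop. The second step was 1.59-fold (log2 difference 0.67 ± 0.13 SE, limma adjusted p = 0.00346), and the fall from day 8 to day 13 was 3.92-fold.

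paxillus_651 measured 11.88, 12.17 and 12.00 at day 2, 11.97, 11.83 and 12.32 at day 6, 12.67, 12.69 and 12.89 at day 8, and 9.70, 10.85 and 10.25 at day 13. Days 2 and 6 overlapped, day 8 stood above both, and day 13 was low with a wide spread. The rise from day 6 to day 8 was 1.64-fold (log2 difference 0.71 ± 0.22 SE, limma adjusted p = 0.0347). This call is weak, since it was lost when any of 5 single arrays of days 6 and 8 was left out (adjusted p between 0.0654 and 0.124), namely day 6 array 1 or 2 and each day 8 array.

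**Figure D3:**
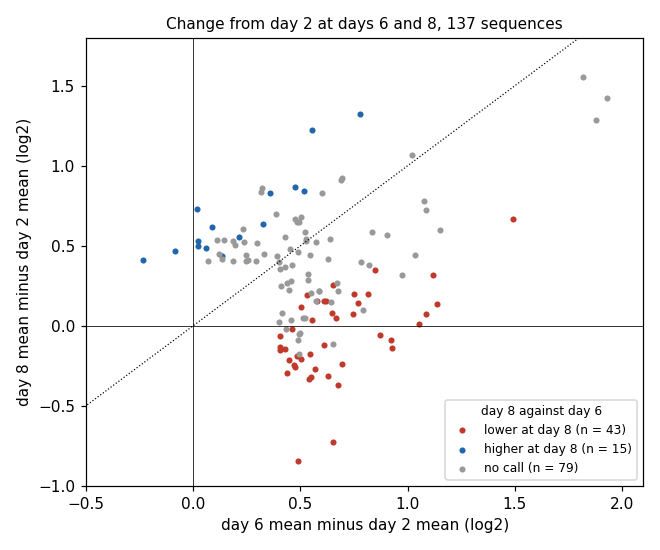
Change from day 2 at day 6 (horizontal) and at day 8 (vertical) of the 137 members, on the log2 scale, coloured by the limma call of day 8 against day 6. The dotted line marks equal change. The 43 members called lower lie under it, 24 of them at or below 0 at day 8, and the 3 largest rises, 1.82 to 1.93 at day 6, lie at the far right.

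The largest rises came from 3 sequences with similar courses, paxillus_10658, paxillus_10162 and paxillus_1666. paxillus_1666 measured 10.77, 9.36 and 9.43 at day 2, 11.63, 11.51 and 11.88 at day 6, 11.47, 11.73 and 11.03 at day 8, and 8.73, 8.32 and 8.75 at day 13. The mid-course arrays were all above those of day 2, and those of day 13 all below, but day 2 array 1 was more than 1 unit above its replicates. Its mean rose 3.52-fold from day 2 to day 6 and fell 8.41-fold from there to day 13, the deepest fall of any member.

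paxillus_10658 measured 8.90, 7.89 and 7.47 at day 2, 10.05, 9.85 and 10.15 at day 6, 9.71, 9.91 and 8.91 at day 8, and 7.15, 6.91 and 7.24 at day 13. Its rise of 3.81-fold was the largest. paxillus_10162 rose 3.68-fold, from 9.07, 8.15 and 7.77 at day 2 to 10.40, 10.11 and 10.11 at day 6. It fell to 7.44, 7.79 and 8.03 at day 13, which overlapped the day 2 arrays, and its loss against day 2 did not pass the test. In all 3 sequences, array 1 was the highest of day 2 and array 3 the lowest of day 8.

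The deepest losses against day 2 were those of paxillus_11405 and paxillus_324. paxillus_11405 measured 11.47, 11.84 and 11.73 at day 2, 11.67, 11.63 and 12.08 at day 6, 12.20, 12.18 and 12.27 at day 8, and 9.52, 10.15 and 9.50 at day 13. It was 1.45-fold higher at day 8 and 3.88-fold lower at day 13 than at day 2. paxillus_324 measured 12.53, 12.71 and 12.48, then 13.46, 13.47 and 13.25, then 13.07, 13.04 and 12.74, and finally 11.13, 10.62 and 10.37. It peaked at day 6, 1.77-fold over day 2, and ended 3.64-fold below it, and no array of one day overlapped those of another.

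Measured by the smaller of the 2 changes, paxillus_1666 led the members, followed by paxillus_11160. The latter measured 8.78, 8.11 and 7.86 at day 2, 9.39, 9.53 and 9.19 at day 6, 8.67, 8.77 and 8.28 at day 8, and 6.65, 6.73 and 7.04 at day 13. It rose 2.17-fold at day 6, was again within the range of day 2 at day 8, and ended 2.73-fold below it. The order of these sequences rests on day 2 array 1. Without that array the loss of paxillus_1666 was 0.80 in place of 1.25 on the log2 scale, while paxillus_11160 had a rise of 1.38 and a loss of 1.18.

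**Figure D4:**
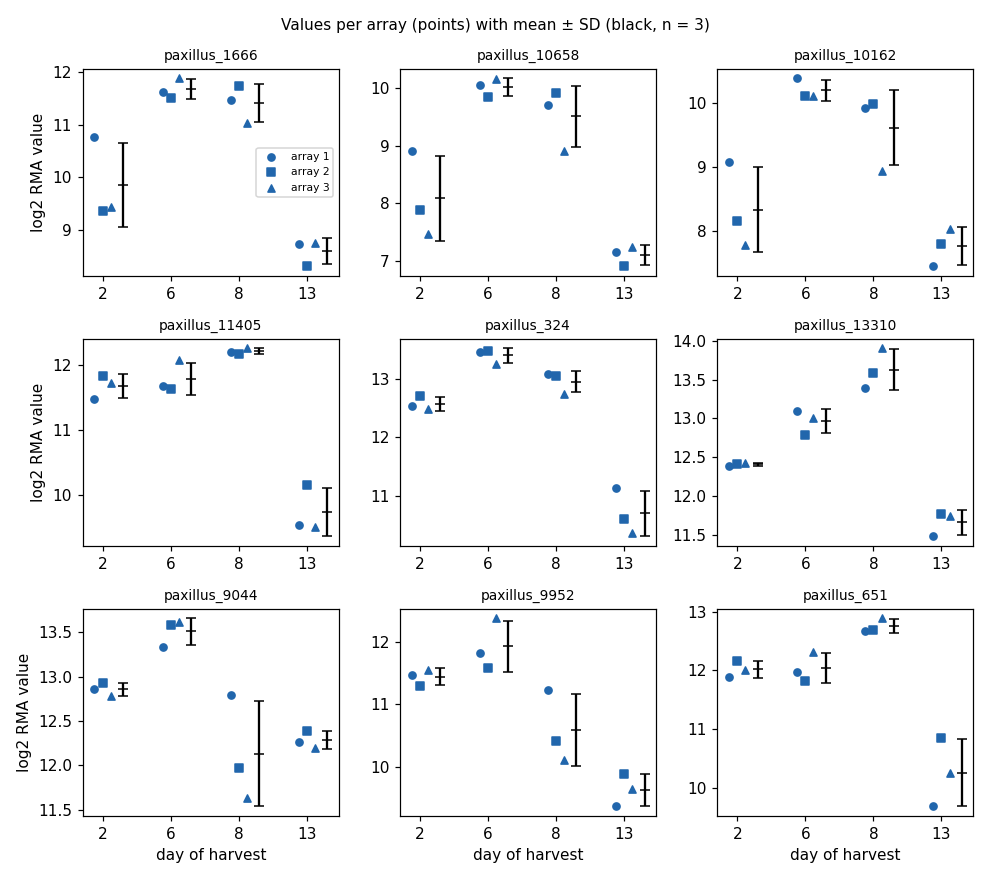
Log2 values per array (points, 1 shape per array number) at days 2, 6, 8 and 13 for 9 named members, with mean ± SD (black, n = 3). The 3 sequences of the top row have a high array 1 at day 2 and a low array 3 at day 8, and the others have narrower day 2 values.

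The brightest members were paxillus_13020, with means of 14.01 ± 0.03, 14.47 ± 0.09, 14.29 ± 0.05 and 12.53 ± 0.43 (SD, n = 3) at days 2, 6, 8 and 13, and paxillus_4109, with 13.63 ± 0.13, 14.03 ± 0.07, 14.03 ± 0.04 and 13.09 ± 0.18. The highest value of any sequence on any array was 15.57. The dimmest were paxillus_6489, with 7.13 ± 0.27, 7.52 ± 0.05, 7.83 ± 0.20 and 6.61 ± 0.19, and paxillus_13634. That sequence measured 6.52, 5.52 and 4.04 at day 2 and 4.12, 4.31 and 3.21 at day 13. All 3 values of day 13 and the lowest of day 2 lay below the control. Its mean rise of 1.07 was not called, while its loss was.

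Several members sit next to each other in number. Sequence numbers are the array's own, and whether neighbours stem from the same gene cannot be read from the files. In 9 pairs of consecutive numbers both sequences were members, which involves 17 members (12.4%). For the 120 sequences of the mirror image the share with a consecutive partner of their own group was 11.7%. The members of 8 pairs had correlations over the 12 arrays between 0.924 and 0.997, in part because all were chosen for the same course.

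The closest pair was paxillus_2580 and paxillus_2581, whose values differed by at most 0.14 on any array. Both had a loss of about 3-fold, 3.15-fold and 3.12-fold. paxillus_4109 and paxillus_4110 differed by at most 0.15, and paxillus_2579 by at most 0.59 from paxillus_2580. With these 3 pairs counted once the number of members is 134. Of the sequences in them, only paxillus_2579 stayed a member whichever single array was left out before choosing again.

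Other neighbours shared the course at different levels. paxillus_6717 and paxillus_6718 differed in mean level by 0.71 but moved together, with rises of 1.89-fold and 1.90-fold and losses of 2.48-fold and 2.51-fold. They fell 2.01-fold and 2.09-fold from day 6 to day 8 (log2 differences -1.01 ± 0.15 and -1.06 ± 0.15 SE, limma adjusted p = 0.00107 and 0.000827). paxillus_323 and paxillus_324 differed by 1.10 in level, paxillus_4642 and paxillus_4643 by 0.87, and paxillus_5543 and paxillus_5544 by 0.61, while paxillus_1582 and paxillus_1583 were at nearly the same level and shared a high day 6 array 3. The exception was the pair paxillus_9887 and paxillus_9888 (r = 0.664). The first peaked at day 6, with means of 9.60, 10.25, 9.68 and 8.95, and the second at day 8, with 12.37, 12.61, 12.90 and 11.61.

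The densest stretch, found after the values were seen, ran from paxillus_2576 to paxillus_2596. The array holds 16 sequences with these numbers, and 7 of them were members: paxillus_2576, paxillus_2579, paxillus_2580, paxillus_2581, paxillus_2584, paxillus_2586 and paxillus_2596. Only paxillus_2576 and paxillus_2579 stayed members whichever single array was left out before choosing again. The others were each lost at least once, so the density of the stretch depends on single arrays. All 7 peaked at day 6, with day 8 lower by 0.37 to 0.73 on the log2 scale. Of the other 9 sequences, 5 rose and were lost without reaching both limits, among them paxillus_2583 with a rise of 0.39 and a loss of 0.80. The stretch was not uniform, since paxillus_2592 and paxillus_2593 fell at once, by 1.13 each at day 6 and by 2.39 and 2.30 at day 13, and paxillus_2594 ended 0.93 above day 2 (log2 loss of -0.93).

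Near-identical courses were also found without regard to number. Over all pairs of members, 9 pairs with 11 members between them had a correlation over the 12 arrays above 0.99 and mean levels within 0.5. paxillus_224 followed paxillus_2580 and paxillus_2581 to within 0.24 and 0.22 on every array. paxillus_1337, paxillus_1487 and paxillus_13579 held a plateau at means of 14.05, 13.80 and 14.09 at day 6 and 14.00, 13.80 and 14.11 at day 8 before falling to 12.40, 12.29 and 12.43. paxillus_2418 and paxillus_2423, which lie near each other in number, differed by at most 0.31 and had the same low day 6 array 3, 12.55 and 12.26 against 13.13 to 13.33 on the other 2 arrays. Whether such sets measure the same transcript was not tested.

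By the median, replicates of the members were more spread than those of all sequences. In day order, the median SD over 3 arrays was 0.203, 0.123, 0.121 and 0.217, where all sequences had 0.129, 0.0790, 0.0771 and 0.139. The mirror image had 0.182, 0.144, 0.103 and 0.170, so the wide spread is not read as particular to the members. Whether limits on means of 3 arrays favour sequences with a wide spread was not tested. A day 2 SD over 0.5 was found in 15 members (10.9%), against 2.15% of all sequences. In 13 of these 15, array 1 was the highest of day 2. Over all 137 members array 1 was the highest of day 2 in 76, as in 3584 of all 12214 sequences. It lay a median of 0.10 above the members' day 2 means, while its median over all sequences was -0.03. At day 8, array 3 was the lowest in 79 members and in 3875 of all sequences, with a median of -0.07 against the members' day 8 means and 0.01 over all. The part of these arrays in the result is measured by leaving each one out.

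Leaving out any 1 of the 12 arrays and choosing again gave between 126 and 148 sequences, but not all the same ones. Of the 137 members, 65 (47.4%) were chosen whichever array was left out, and 72 were lost at least once. Day 2 array 1 mattered most. Without it 40 members were lost, 27 because the loss from day 2 then missed 0.5 and 13 because the rise missed 0.4. Without day 2 array 2, 26 were lost, and 23 of these missed the rise. No day 6 array cost more than 9 members and no day 8 array more than 3, while the day 13 arrays cost between 4 and 16.

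The 65 members that were kept each time had a median rise of 0.67 and a median loss of 0.98, and the other 72 had 0.49 and 0.66. The split itself favours large changes in the 65, since it depends on the distance from the limits. Their day 6 to day 8 step was called lower in 23, higher in 9 and neither in 33. They include paxillus_1666, paxillus_10658 and paxillus_11405. paxillus_10162 is not among them. Without day 2 array 1 its loss from day 2 was 0.21, while its rise grew to 2.25.

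The outcome of the rule was also measured on arrays left out of a choice. The limits themselves had been set with earlier results of these data known, so these arrays are not independent of the rule. Sequences were chosen again from the arrays of 2 replicate numbers per day and then measured on the arrays of the number left out, at the peak day set by the arrays used. With replicate 1 left out, 147 sequences were chosen, and 121 (82.3%) were higher at the peak day and lower at day 13 than at day 2 on the left-out arrays. With replicate 2 left out it was 133 of 137 (97.1%), and with replicate 3 left out 112 of 125 (89.6%). Of all sequences, measured the same way, between 15.1% and 17.3% had these directions. The chosen sets held 105, 105 and 102 of the 137 members, so their shares are not those of the members themselves.

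The sizes held in the left-out arrays to a varying degree. With replicate 1 left out, the median rise was 0.58 in the arrays used and 0.44 in those left out, and the median loss 0.75 and 0.93. With replicate 2 left out, the rise was 0.60 and 0.58 and the loss 0.80 and 0.66. With replicate 3 left out, the rise was 0.59 and 0.67 and the loss 0.76 and 0.85. Both limits were reached on the left-out arrays by 61, 56 and 65 sequences (41.5%, 40.9% and 52.0%). These shares are a description with no test, since each uses a single array per day.

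**Figure D5:**
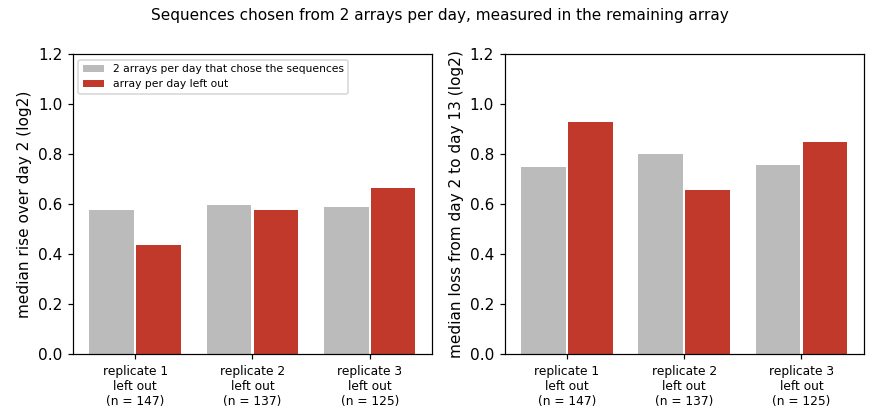
Median rise over day 2 (left) and median loss from day 2 to day 13 (right), on the log2 scale, for sequences chosen from 2 arrays per day, in those arrays (grey) and in the array per day left out (red). The rise is smaller on the left-out arrays of replicate 1, 0.44 against 0.58, and the loss on those of replicate 2, 0.66 against 0.80.

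Calls between days 6 and 8 were also counted in sequences that met 1 of the 2 limits only. Of the 2307 sequences with the same loss and no rise, 31.5% were called lower at day 8 than at day 6 and 1.13% higher. Of the 1374 with the same rise and a day 13 mean within 0.5 of day 2, 4.95% were called lower and 34.1% higher. The members' shares were 31.4% lower and 10.9% higher, and the 120 sequences of the mirror image had 36.7% lower and 5.83% higher. The median difference between days 6 and 8 was -0.34 for the members, -0.20 for the loss without rise, 0.18 for the rise without loss and -0.26 for the mirror image. These values stand side by side without a test and nothing is read from them, since the groups were set by day means of the same arrays. The median SD at day 2 was 0.157 for the rise without loss, 0.114 for the loss without rise and 0.182 for the mirror image, against 0.203 for the members.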

How the data were processed

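Expression was measured on 12 subarrays of a 1-colour (Cy3) NimbleGen chip. The authors deposited log2 expression values made with RMA, as recorded per the file headers. RMA subtracts background, equalises the distributions of the arrays and combines each sequence's probes, so a change is relative to the rest of the array and a change in total mRNA is not seen. Its version is not given in the sources used here, and values between 2.81 and 15.57 were taken as log2. The deposited number of probe pairs per sequence is the other column used. The series-wide table held the same log2 values in all 146568 cells.

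All 12214 sequences were fitted in 1 model with a mean per day (limma 3.58.1, R 4.3.3; lmFit, contrasts.fit, eBayes), with 8 residual degrees of freedom and Benjamini-Hochberg adjustment within each comparison. No dim sequences were removed. The fit was tested on simulated data. Day means are given ± SD, and 3 arrays per day limit their precision. Nothing says whether the pooled cultures were independent, so p-values measure the spread between these samples only.

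The members, the limits and the comparisons were chosen with earlier results of these data known. Named are the 2 largest called rises and falls per comparison among members whose arrays do not overlap, the 2 with the largest smaller change, those just inside and outside the limits, the 2 brightest and 2 dimmest, and consecutive numbers. Those of the stretch, of near-identical courses and of missing calls were chosen after their values were seen. Alternatives were other normalizations, filters, weights, limits and thresholds, the replicate number as a block, and each array left out.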

Additional observations from a re-analysis of the deposited data

Results flagged for a closer look

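In 3 members the change from day 2 went in opposite directions at days 6 and 8, and the difference between these days was itself past the limma threshold. For paxillus_4643 the log2 difference between day 8 and day 6 was -0.94 ± 0.11 SE (limma adjusted p = 0.000364), from 0.63 at day 6 and -0.31 at day 8 relative to day 2. For paxillus_5597 it was -0.87 ± 0.11 SE, and for paxillus_9044 -1.38 ± 0.21 SE. All 3 calls held together in 9, 10 and 8 of the 12 fits with 1 array left out. Without day 8 array 3 at least 1 of them was lost in each of these sequences. An exchange of days 6 and 8 would turn the order of the 2 directions. The part of day 8 array 3 in these values was not tested beyond leaving it out.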

How the results depend on the processing

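The merging of neighbours, and other scalings of the held-out values and the mirror image, were chosen after seeing the data. The rule chose 238 sequences with limits of 0.3 and 0.4, 79 with 0.5 and 0.6, and 64 with the mean of days 6 and 8 in place of the larger. Median centring chose 126 and quantile normalization 130, of which 126 and 124 were members. Day medians chose 140, of which 107 were members. Single arrays left out gave 126 to 148. Between days 6 and 8, the 58 calls became 22 at a threshold of 0.01, 99 when arrays were weighted, 94 in a fit to the 6 arrays alone, and 24 to 70 with single arrays left out. A minimum fold of 1.5 (limma treat) left 0 of them, and 8 members had an unadjusted p under 0.05 there. The same minimum fold left 4, 5 and 35 members in the comparisons of days 6, 8 and 13 with day 2, and 82 between days 8 and 13. Single arrays left out gave 73 to 99, 57 to 73 and 125 to 135 calls in the comparisons of days 6, 8 and 13 with day 2. Day 13 had 126 to 135 against day 8, and 137 each time against day 6. The cause was not tested. Shares of all sequences called under these settings are not given, so these counts are not read as particular to the members. In all, 59 of 70 counts stayed within 1.5 times under changed settings, and 81 of 84 without a single array. Many of these counts are fixed by the rule or by construction, so the totals are not read as support. Without a single array, every count outside that range belonged to the comparison of days 6 and 8, where 9 of 12 stayed within. Deviations of same-numbered arrays from their day means had r over 0.1 in 5 of 18 pairs, from -0.30 to 0.63. The highest was that of replicate 2 between days 2 and 13. Arrays of different numbers were not compared in this way, so whether the numbers pair the arrays was not settled. The replicate number as a block gave 62 calls between days 6 and 8. With days 6 and 8 exchanged, paxillus_651 became -0.71, paxillus_9044 1.38, paxillus_9952 1.33 and paxillus_13310 -0.67 by construction. Of 340 values of named sequences, 318 kept direction and call, 18 lost the call and these 4 reversed.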
